A study of Homo sapiens with 30 samples.

Results

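The circadian clock genes are 10 genes of the transcription loop that keeps daily time in cells, namely ARNTL, CLOCK, PER1, PER2, PER3, CRY1, CRY2, NR1D2, DBP and TEF. They were taken by name from the array annotation, where 21 of the 41000 probes and 10 of the 30484 gene names or accessions carry 1 of these names. All 10 were present, 1 with a single probe, 7 with 2 probes and 2 with 3 probes. The arrays compared cells treated with recombinant human BMP7, labeled with Cy5, with cells treated with vehicle, labeled with Cy3, in 5 human breast cancer cell lines (T-47D, ZR-75-30, MDA-MB-361, HCC1954 and MDA-MB-231) at 30 min and 1, 3, 6, 12 and 24 h. The cells had been seeded and left to attach for 24 h before either treatment. Per the paper, MDA-MB-231 and T-47D were exceptions to the recommended culture conditions, each with its own serum concentration. Each line and time had 1 two-color array of total RNA (30 in all), each sample joined 3 parallel cultures, and dyes were never swapped, so spread could be measured only between times or between lines.

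In the core loop, the proteins of ARNTL (also called BMAL1) and CLOCK bind DNA as a pair and switch on the PER and CRY genes, whose products then hold that pair back. NR1D2 is a nuclear receptor that represses ARNTL through sites shared with the ROR receptors. DBP and TEF are output factors that bind D-box sites, which also lie in clock genes. Cultured cells lack a daily light cycle, and fresh serum or medium is known to set their clocks to a common phase. BMP7 is a bone morphogenetic protein, a secreted ligand whose receptors act through SMAD1, SMAD5 and SMAD9.

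Letter matches to site types of the loop were looked for in the genes' own promoters. Of 16 windows, 5 that held a match are shown. Each has 300 bases (250 before and 50 after the start of transcription), from RefSeq and the GRCh38.p14 build. Capitals mark exact matches, on either strand, to the E-box CACGTG, the D-box TTATGTAA or TTACGTAA, and the ROR element TAGGTCA, and none of the marked matches overlap.
PER1 promoter (chr17:8152355-8152654, minus strand): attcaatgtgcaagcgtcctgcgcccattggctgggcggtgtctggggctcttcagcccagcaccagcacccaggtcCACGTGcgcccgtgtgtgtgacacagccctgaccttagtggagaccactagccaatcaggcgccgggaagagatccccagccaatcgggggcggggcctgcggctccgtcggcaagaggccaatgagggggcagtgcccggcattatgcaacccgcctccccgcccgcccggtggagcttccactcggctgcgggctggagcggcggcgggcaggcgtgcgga
PER2 promoter (chr2:238288561-238288860, minus strand): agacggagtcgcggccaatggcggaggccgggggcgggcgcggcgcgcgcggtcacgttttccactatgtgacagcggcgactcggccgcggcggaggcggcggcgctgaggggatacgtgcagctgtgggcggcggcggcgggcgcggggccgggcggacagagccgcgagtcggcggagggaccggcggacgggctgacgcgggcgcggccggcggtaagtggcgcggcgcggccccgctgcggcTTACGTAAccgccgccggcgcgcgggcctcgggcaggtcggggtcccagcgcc
PER3 promoter (chr1:7784041-7784340, plus strand): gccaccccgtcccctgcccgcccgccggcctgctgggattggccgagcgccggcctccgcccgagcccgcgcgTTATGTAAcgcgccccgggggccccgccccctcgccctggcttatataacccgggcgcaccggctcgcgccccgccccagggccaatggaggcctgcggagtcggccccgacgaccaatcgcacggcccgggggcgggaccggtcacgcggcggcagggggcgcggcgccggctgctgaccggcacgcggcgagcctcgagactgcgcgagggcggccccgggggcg
ARNTL promoter (chr11:13277540-13277839, plus strand): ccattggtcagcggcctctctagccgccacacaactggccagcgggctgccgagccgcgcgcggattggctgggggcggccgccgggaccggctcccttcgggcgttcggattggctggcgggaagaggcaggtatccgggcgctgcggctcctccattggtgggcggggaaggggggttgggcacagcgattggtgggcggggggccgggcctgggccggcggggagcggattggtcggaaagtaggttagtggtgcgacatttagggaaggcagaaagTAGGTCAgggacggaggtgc
NR1D2 promoter (chr3:23945871-23946170, plus strand): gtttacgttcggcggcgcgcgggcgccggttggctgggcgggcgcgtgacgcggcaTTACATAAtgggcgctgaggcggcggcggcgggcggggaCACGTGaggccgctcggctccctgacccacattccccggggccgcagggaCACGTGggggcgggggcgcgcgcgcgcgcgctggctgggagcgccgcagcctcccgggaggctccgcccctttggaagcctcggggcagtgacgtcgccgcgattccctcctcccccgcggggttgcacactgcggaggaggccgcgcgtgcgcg

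The RefSeq table held 16 windows for the 10 genes, since 6 of them have 2 starts listed, and all 10 genes matched (ARNTL as BMAL1). An E-box lay in 4 of the 16 windows, in PER1, NR1D2 (2 copies) and both windows of TEF, against 7.26% of all 35116 windows. No window of PER2, PER3, CRY1 or CRY2 held an E-box. A D-box lay in 3, those of PER2, PER3 and NR1D2, against 1.01% of all windows. A ROR element lay in 2, one of ARNTL and one of CRY2, against 1.85%. The cyclic AMP element TGACGTCA was in none of the 16 (1.85% of all windows), and the SMAD1/5 element GGCGCC was in 8 (19.2% of all windows), from 6 of the 10 genes. The 2 windows of PER3 overlap and share the same GGCGCC site, so these windows are not independent. These matches are descriptions of the letters in these windows.

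Levels below are log2 processed signals minus the median of the same channel of that array, so a level of 0 is that of the median probe. Each gene is read from its probe with the highest mean vehicle level, and levels of different genes are not compared, since probes differ in brightness. These 10 probes were well above background in the vehicle channel on 28 to 30 of the 30 arrays. Of all 21 probes, 16 were so on at least 27 arrays and 2, the second probes of PER1 and TEF, on 0.

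The arrays of a line were alike. The median correlation of a vehicle channel with the others of its line, over 21578 probes, was between 0.962 and 0.994 for 27 arrays and lower for T-47D at 3 h (0.937), MDA-MB-231 at 6 h (0.940) and T-47D at 24 h (0.949), and all 30 were more like every array of their own line than like any of another. The lines bore their markers. ERBB2 was high in MDA-MB-361 (10.37 ± 0.15), ZR-75-30 and HCC1954, ESR1 was not well above background on any MDA-MB-231 array, PGR was highest in T-47D (4.56 ± 0.53, SD, n = 6 times), and CDH1 was lowest and VIM highest in MDA-MB-231 (1.53 ± 0.54 and 10.25 ± 0.71). Of 4 markers of other cell types, the leukocyte gene PTPRC was not well above background on any array and the fibroblast collagen COL3A1 was so on 2 arrays of ZR-75-30. COL1A1, another fibroblast collagen, was so on all 6 arrays of MDA-MB-361 (2.23 ± 0.10), T-47D (0.48 ± 0.28) and HCC1954 (-1.27 ± 0.30), on 4 of ZR-75-30 and on 1 of MDA-MB-231. PECAM1, an endothelial gene, was so on all 6 arrays of HCC1954 (2.22 ± 0.63), on 3 of MDA-MB-231 and on none of the other lines. Their part in the levels of the clock genes was not tested. The arrays were scanned in 2 batches, and 6 of them lay in the second, 3 of the 5 arrays at 30 min and both the T-47D 3 h and MDA-MB-231 6 h arrays among them. The 30 arrays lay on 13 slides, 12 of which held a single line. Of the BMP targets checked, 4 of 7 (ID2, ID3, SMAD6 and SMAD9, named after their values were seen) had a higher BMP7/vehicle ratio at 12 and 24 h than in the first hour, by 0.91 ± 0.13 (SE) on the log2 scale for ID2, with an adjusted p of 0.00558 (limma). Over all probes 0.132% were called higher in that test. The ID2 call was lost under 5 of 15 alternatives, without MDA-MB-361 (adjusted p = 0.068), without ZR-75-30 (0.221), in the first scan batch alone (0.183), without the line as a block (0.18) and with normexp and median scaling (0.278). The calls of SMAD6, SMAD9 and ID3 were lost under 8, 9 and 10 of the 15.

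The clock genes differed among the cell lines. In vehicle, 9 of the 10 genes differed among the 5 lines (limma F-test over all probes, time as a block, Benjamini-Hochberg adjusted p under 0.05), DBP being the exception. That share is not particular to them, since 72.9% of all probes passed the same test, and 92.5% of the probes well above background on at least 15 arrays. The median difference between the highest and the lowest line was 1.93 (log2) over the 10 genes and 1.48 over all probes. A line is represented by 6 arrays at different times, which are not replicates of a condition. For MDA-MB-231 and T-47D, the part of their serum concentration cannot be told apart from that of the line.

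**Figure D1:**
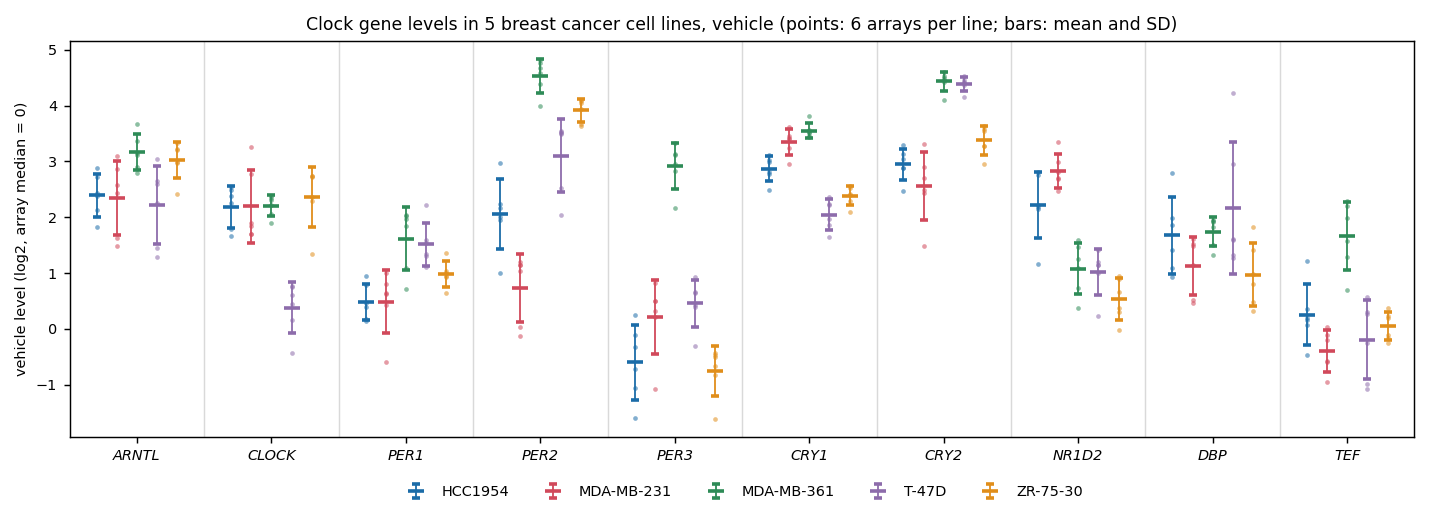
Vehicle level (log2, median of each array at 0) of the 10 clock genes in 5 breast cancer cell lines. Points are the 6 arrays of a line (30 min to 24 h), and bars give their mean and SD. PER3 in MDA-MB-361 lay above every array of the other 4 lines, and CLOCK in T-47D below every array of the others.

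PER2 and PER3, repressors of the loop, had the widest ranges. In MDA-MB-361 the PER2 level was 3.99 at the lowest, 4.63 at the median and 4.81 at the highest of the 6 times. In ZR-75-30 these values were 3.63, 4.0 and 4.10, in T-47D 2.04, 3.5 and 3.54, and in HCC1954 1.01, 2.08 and 2.98. MDA-MB-231 had -0.13, 1.08 and 1.2. The means of MDA-MB-361 and MDA-MB-231 (4.54 ± 0.31 and 0.74 ± 0.61, SD, n = 6 times) lay 13.9-fold apart (adjusted p = 2.92e-11, limma F-test). MDA-MB-361 and ZR-75-30 overlapped each other, while all 12 of their arrays lay above all 18 of the other lines. The second PER2 probe, upstream in the gene and well above background on 23 arrays, put ZR-75-30 highest and HCC1954 lowest, a different order.

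PER3 separated MDA-MB-361 from the rest. Its level there was 2.17, 3.03 and 3.33 at the lowest, median and highest time. It was -0.30, 0.54 and 0.92 in T-47D, and -1.07, 0.41 and 0.83 in MDA-MB-231. In HCC1954 it was -1.60, -0.53 and 0.25, and in ZR-75-30 -1.61, -0.59 and -0.43. No array of another line reached the lowest one of MDA-MB-361, and the 4 other lines overlapped in order. The highest and lowest lines differed 12.8-fold (adjusted p = 2.54e-10, limma F-test), and a second PER3 probe gave 13.2-fold with the same order of lines. The third probe, well above background on 20 arrays, put MDA-MB-361 (-0.31 ± 0.48) next to MDA-MB-231 (-0.43 ± 0.14).

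PER1, the member of the family known for a quick response to many stimuli, had the smallest range of the 3. It was 1.61 ± 0.57 in MDA-MB-361 and 1.52 ± 0.38 in T-47D, and 0.48 ± 0.33 in HCC1954 and 0.49 ± 0.56 in MDA-MB-231 (adjusted p = 5.51e-05, limma F-test). All neighbors in this order overlapped.

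The cryptochromes, partners of the PER proteins, had unlike orders. CRY2 was 4.10, 4.48 and 4.60 at the lowest, median and highest time in MDA-MB-361, and 4.15, 4.42 and 4.53 in T-47D. Both lines lay above all arrays of ZR-75-30, the next one, whose highest was 3.64. MDA-MB-231 was lowest at 2.56 ± 0.61 (SD, n = 6 times), 3.68-fold under MDA-MB-361 (adjusted p = 3.34e-09, limma F-test). CRY1 was highest in MDA-MB-361 (3.55 ± 0.14) and MDA-MB-231 (3.35 ± 0.23) and lowest in T-47D (2.05 ± 0.27), a 2.84-fold range in which neighbors overlapped (adjusted p = 2.52e-09, limma F-test). T-47D was thus among the highest for CRY2 and the lowest for CRY1, the latter on both CRY1 probes.

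Of the activators, CLOCK set T-47D apart and ARNTL separated no line. CLOCK was between 2.19 and 2.36 on average in 4 lines, and in T-47D it was 0.38 ± 0.46 (SD, n = 6 times), with a lowest value of -0.44, a median of 0.53 and a highest of 0.77. All T-47D arrays lay below all 24 others, the lowest of which was 1.34 in ZR-75-30 at 30 min. The range was 3.95-fold (adjusted p = 3.77e-07, limma F-test), and the second CLOCK probe gave 4.35-fold with T-47D again apart. ARNTL had the narrowest range of the 10 genes, 1.93-fold, from 3.16 ± 0.32 in MDA-MB-361 to 2.22 ± 0.70 in T-47D (adjusted p = 0.0092, limma F-test). That call was lost with slide as a random block (adjusted p = 0.0517) and without the 3 h arrays (adjusted p = 0.0683).

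NR1D2 had another order. It was highest in MDA-MB-231, at 2.47, 2.75 and 3.35 for the lowest, median and highest time, followed by HCC1954 at 1.16, 2.21 and 2.81. MDA-MB-361 (1.08 ± 0.46) and T-47D (1.02 ± 0.41) came next, and ZR-75-30 was lowest, at -0.02, 0.52 and 0.95. Neighbors overlapped, while all 6 MDA-MB-231 arrays lay above all arrays of the last 3 lines, and the ends were 4.93-fold apart (adjusted p = 5.39e-09, limma F-test). The second NR1D2 probe also put MDA-MB-231 first (2.44 ± 0.90) but MDA-MB-361 second (1.89 ± 0.39).

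Of the output factors, TEF was 1.67 ± 0.61 (SD, n = 6 times) in MDA-MB-361 and between -0.40 and 0.25 on average elsewhere (4.2-fold, adjusted p = 3.58e-06, limma F-test), and HCC1954 at 1 h (1.21) overlapped it. For DBP the 2 probes disagreed. On the brighter one the lines ranged from 0.97 ± 0.57 in ZR-75-30 to 2.17 ± 1.18 in T-47D (adjusted p = 0.0777, limma F-test), and in T-47D the values at 3 h (4.23) and 24 h (2.95) stood above 1.28 to 1.62 at the other times. These are the T-47D arrays least like their line, and without them and MDA-MB-231 at 6 h the adjusted p was 0.0748. With scan batch as a term it was 0.00198, and in the first batch alone 0.0372. On the other DBP probe, upstream in the gene, MDA-MB-361 was highest (2.16 ± 0.26) and MDA-MB-231, above background on 3 of 6 arrays, lowest (-1.91 ± 0.64, adjusted p = 2.13e-11), and the r between both probes over 30 arrays was 0.32. The DBP level is therefore uncertain.

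Across the 10 genes, MDA-MB-361 had the highest mean of the 5 lines for PER1, PER2, PER3, CRY1, CRY2, ARNTL and TEF. It overlapped the next line for all of these but PER3. The second probes of CRY1, CRY2 and PER2 put MDA-MB-231, T-47D and ZR-75-30 first. How often MDA-MB-361 was highest over all probes was not counted. Most of the other clock genes listed also differed by line, 20 of 23 (87.0%, against 72.9% of all probes). The largest ranges were those of BHLHB2 and BHLHB3, which code for repressors of E-box genes (adjusted p = 1.31e-14 and 6.89e-14, limma F-test). BHLHB2 was -1.76 ± 0.99 in MDA-MB-361, and between 2.80 (ZR-75-30) and 4.49 (T-47D) in the others. BHLHB3 was 3.63 ± 0.31 in MDA-MB-361 and -2.47 ± 1.17 in T-47D, where 1 of 6 arrays was well above background. NPAS2, a relative of CLOCK that also pairs with ARNTL, was 2.43 ± 0.45 in HCC1954. It was lowest in T-47D (-2.59 ± 0.45), where 1 of 6 arrays was well above background for it and CLOCK was lowest too. HLF, a relative of DBP and TEF, was 1.61 ± 0.60 in MDA-MB-361 and not well above background on any array of HCC1954 or MDA-MB-231. ARNTL2, a relative of ARNTL, was highest in MDA-MB-231 (3.99 ± 0.14) and lowest in T-47D (-1.39 ± 0.66), and C1orf51, which codes for a repressor of the loop, was 1.32 ± 0.29 in T-47D and above background on no array of MDA-MB-231, MDA-MB-361 or HCC1954.

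Differences over time in vehicle passed no test. None of the 10 genes passed the test for a difference among the 6 times in vehicle with the line as a block (limma F-test), where 0.0244% of all probes passed (10 of 41000), and none had an unadjusted p under 0.05. The smallest p were those of NR1D2 (0.081) and PER1 (0.0859). For the narrower question of 12 and 24 h against 30 min and 1 h, no member passed either, while 0.0366% of all probes did (15 of 41000). CLOCK, NR1D2, PER1 and PER2 had an unadjusted p under 0.05 (limma), as had 7.8% of all probes.

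**Figure D2:**
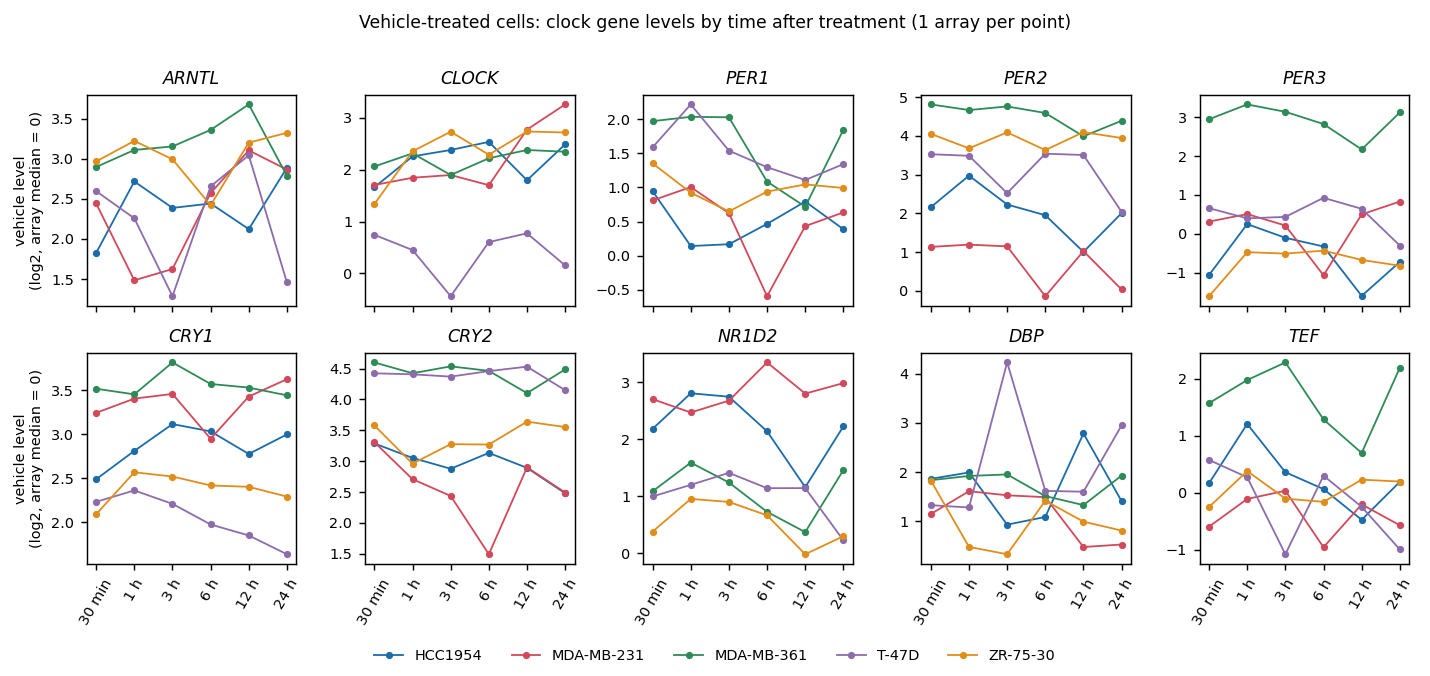
Vehicle level (log2, median of each array at 0) of the 10 clock genes against time after treatment, 1 array per point, with a line for each cell line. The vertical axes differ between genes, and for PER3 MDA-MB-361 lay highest at every time.

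PER2 had the largest late minus early value. It was 0.16 in ZR-75-30, -0.55 in MDA-MB-361, -0.63 in MDA-MB-231, -0.73 in T-47D and -1.06 in HCC1954. It was thus lower late in 4 of 5 lines, with a mean of -0.56 ± 0.21 (SE, 95% interval -1.01 to -0.12, adjusted p = 0.491, limma). In the BMP7-treated cells of the same arrays, a comparison added after the data had been seen, PER2 was lower late in 5 of 5 lines, at -0.25 in ZR-75-30, -0.65 in MDA-MB-361, -0.87 in T-47D, -1.0 in MDA-MB-231 and -1.32 in HCC1954. The mean there was -0.82 ± 0.17 (SE, 95% interval -1.17 to -0.47), and the adjusted p of 0.0674 (limma) missed the threshold, which 0.0634% of all probes passed (26 of 41000), none of them of a clock gene among the 10. The second PER2 probe gave -0.66 in vehicle, where it was lower late in 5 of 5 lines, and -0.22 in BMP7-treated cells. There it was lower late in 2 of 5 lines and higher in 3, with -2.08 in MDA-MB-231.

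NR1D2 and PER1 were lower late in 4 of 5 lines, NR1D2 by a mean of -0.37 ± 0.18 (SE, adjusted p = 0.627, limma) and PER1 by the same amount, -0.37 ± 0.18 (adjusted p = 0.628, limma). TEF was at -0.42 ± 0.22 and PER3 at -0.21 ± 0.23. CLOCK and ARNTL were on the other side, at 0.47 ± 0.20 (higher late in 4 of 5 lines, adjusted p = 0.54, limma) and 0.30 ± 0.22 (4 of 5). CRY2, DBP and CRY1 were at -0.15, -0.05 and -0.02. The median over the 10 genes was -0.18, against -0.01 over all probes. Whether the late minus early value differed among the lines was tested as well, and no member passed (adjusted p from 0.791 to 0.836, limma F-test), nor did any probe of the array (0.0% called, 2598 with an unadjusted p under 0.05). This test rests on 20 arrays and could miss even a large difference in a single line, so its outcome does not show that the lines were alike. Its calls depend on the setting, from 0 to 116 probes over the alternatives tried, with no member among them.

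**Figure D3:**
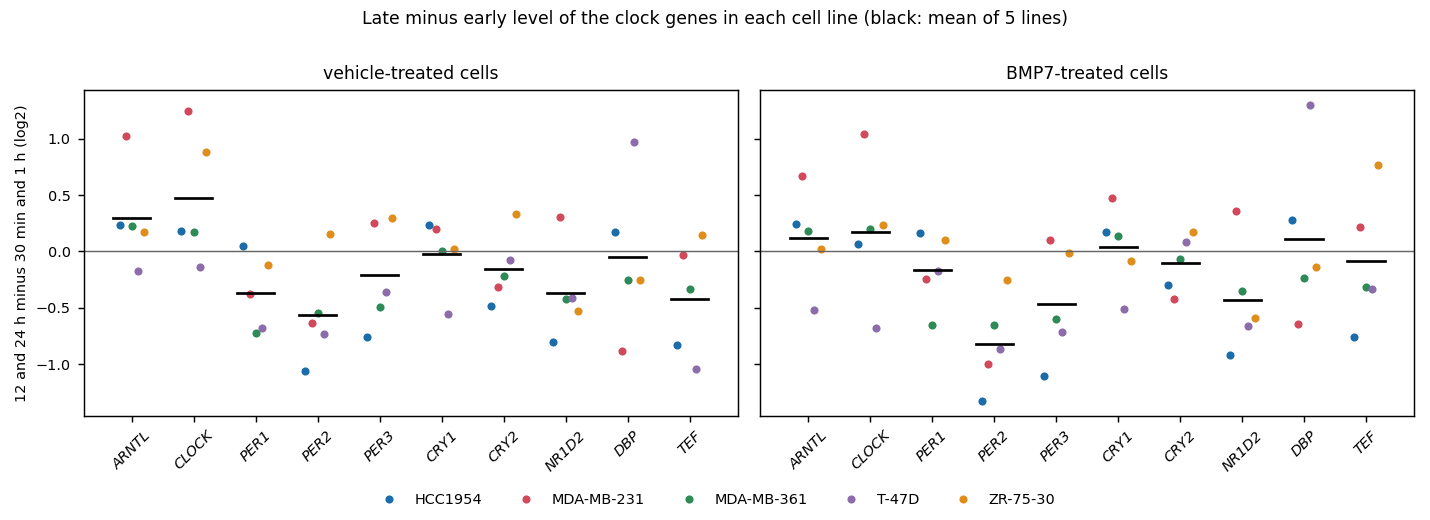
Mean level at 12 and 24 h minus mean level at 30 min and 1 h (log2) for each clock gene and cell line, in vehicle-treated and BMP7-treated cells. Each point is a line, and the black bars are means of 5 lines. PER2 in BMP7-treated cells lay below 0 in all 5 lines, and CLOCK and ARNTL above 0 in 4 of 5 lines in both.

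The only gene of the other 23 in the clock list that passed this test was NR1D1, the close relative of NR1D2 and likewise a repressor of ARNTL. In MDA-MB-361 its level was 2.90, 2.85, 1.82, 0.92, 1.04 and 1.86 from 30 min to 24 h. It was 3.35, 2.28, 2.66, 2.30, 1.71 and 2.01 in HCC1954, and 1.79, 1.74, 1.43, 0.86, 0.73 and 0.73 in ZR-75-30. In all 3, the levels at 12 and 24 h lay below both levels of the first hour. In T-47D the levels were 2.14, 2.55, 2.36, 1.62, 1.29 and 1.75, and in MDA-MB-231 2.63, 2.21, 1.38, 2.62, 1.54 and 0.90. Both late values lay below both early ones in these lines too. The mean difference was -1.09 ± 0.19 (SE, 95% interval -1.49 to -0.69, adjusted p = 0.03, limma) in vehicle and -1.23 ± 0.19 (adjusted p = 0.00713, limma) in BMP7-treated cells. In vehicle the direction held under all 16 alternatives and the call under 7. It was lost with scan batch as a term (-0.94, adjusted p = 0.0803), in the first batch alone (-1.01, adjusted p = 0.162), and without HCC1954, MDA-MB-361, T-47D or ZR-75-30 (-1.12, -1.01, -1.15 and -1.10, with adjusted p of 0.214, 0.25, 0.143 and 0.348). With slide as a random block the adjusted p was 0.211, and with normexp background correction or without the line as a block it was 1.0.

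Genes known to answer fresh serum or medium within the hour were compared over the same interval. Of 17 listed, 4 fell in vehicle (FOS, FOSB, EGR1 and CTGF) and none rose, with a median late minus early value of -0.87. Over all probes 0.0341% fell, and the median was -0.006. FOS, a subunit of the AP-1 factor, fell by a mean of 3.55 ± 0.41 on the log2 scale (SE, adjusted p = 0.000133, limma), FOSB, its paralog, by 2.46 ± 0.30 (adjusted p = 0.000223) and EGR1, a zinc finger factor, by 2.19 ± 0.27 (adjusted p = 0.000224). CTGF, a secreted matricellular protein, fell by 2.15 ± 0.39, and its call (adjusted p = 0.037) was lost under 11 of 16 alternatives, without HCC1954, MDA-MB-361, T-47D or ZR-75-30 among them. FOS was between 1.23 and 6.21 on the 10 vehicle arrays of the first hour and between -2.59 and 1.70 on those at 12 and 24 h. The part of this response in the levels of the clock genes was not tested.

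**Figure D4:**
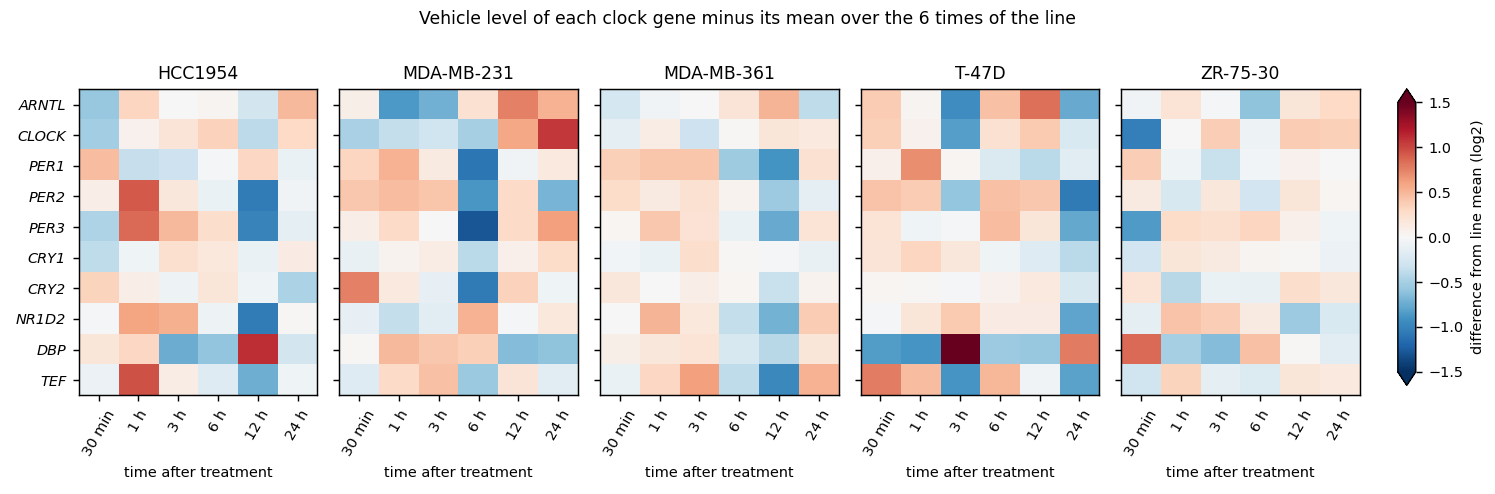
Vehicle level of each clock gene at each time minus its mean over the 6 times of that line (log2, red above and blue below the line mean, colors saturating at 1.5 either way). In MDA-MB-361 at 12 h, 7 of the 10 genes were at their lowest while ARNTL and CLOCK were at their highest.

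Within single lines, several members reached their lowest level at 12 h, a pattern noted after the values were seen. In vehicle-treated MDA-MB-361 cells, PER1, PER2, PER3, CRY2, NR1D2, DBP and TEF were each at their lowest of the 6 times at 12 h, where 20.9% of 21578 probes were, and ARNTL and CLOCK were at their highest, as 20.2% of probes were. PER1 read 1.97, 2.04, 2.03, 1.09, 0.72 and 1.85 from 30 min to 24 h, TEF 1.57, 1.98, 2.29, 1.29, 0.70 and 2.19, and NR1D2 1.09, 1.59, 1.24, 0.73, 0.37 and 1.46. ARNTL read 2.90, 3.11, 3.15, 3.36, 3.68 and 2.79. PER1, TEF and NR1D2 were thus low at 12 h and higher again at 24 h, and ARNTL had the opposite course. In BMP7-treated cells of the same line, 5 members (PER1, PER2, PER3, CRY2 and TEF) were lowest at 12 h, where 17.0% of 21651 probes were lowest and 20% highest, with ARNTL and CLOCK again highest there. The 12 and 24 h arrays of this line lay on another slide than its first 4, and the 12 h values rest on 1 array, so no test applies.

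In vehicle-treated HCC1954 cells, PER2, PER3, NR1D2 and TEF were lowest at 12 h, where 36.4% of probes were. All 4 were highest at 1 h, as 20.9% of probes were. PER2 read 2.16, 2.98, 2.23, 1.96, 1.01 and 2.01 from 30 min to 24 h. ARNTL did not mirror them there (2.12 at 12 h and 2.89 at 24 h). In MDA-MB-231, 7 members were lowest at 6 h, on the array that was least like its line, where 24.8% of probes were lowest and 50.4% highest. In T-47D, 5 were lowest at 24 h, on another of the arrays set apart, where 38.2% of probes were lowest. ZR-75-30 had no time at which more than 4 members were lowest (30 min, where 25.2% of probes were).

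Over the 30 vehicle arrays, after each line's mean was subtracted, PER2 and TEF had the highest correlation of the 45 pairs of members (r = 0.76, and 0.64 without the 3 arrays set apart). PER3 with TEF (0.67 and 0.65) and ARNTL with CLOCK (0.63 and 0.60) followed. PER3 with NR1D2 was 0.51 over all arrays and 0.78 without those 3. The lowest were CLOCK with DBP (-0.76 and -0.72) and ARNTL with DBP (-0.70 and -0.55), both below 0 in each of the 5 lines. These values describe arrays that share their scaling and slides, and each gene is read from its brightest probe. In the same measure, r between that probe and the second was -0.10 for PER2 and 0.30 for DBP, so neither was matched by its partner. It was 0.83 for CLOCK and 0.44 for NR1D2, and 0.85 and 0.39 for the 2 other PER3 probes. The second TEF probe was well above background on 0 arrays. The genes most like NR1D2 in this measure were PRIM1 (r = 0.82), PDPR (0.75), C9orf102 (0.75), COG2 (0.74) and TMEM87A (0.74), and those most like PER1 were ARVCF (0.82), RIMS4 (0.81), ZNF584 (0.81), RUTBC1 (0.80) and PPARGC1B (0.80), out of 21578 probes searched. Without the 3 arrays set apart, the values for NR1D2 were 0.76, 0.69, 0.80, 0.78 and 0.67 in that order of genes, so their ranking changed. Those for PER1 were then between 0.71 and 0.75.

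No difference between BMP7 and vehicle in these genes passed a test. The mean log2 BMP7/vehicle ratio over 5 lines was called for none of them, where 0.00976% of all probes were called (4 of 41000), and none of the 10 had an unadjusted p under 0.05, as 15.4% of all probes had. The means ran from -0.17 for NR1D2 to 0.11 for DBP, and the 95% intervals of all 10 genes lay between -0.35 and 0.33, or 0.78-fold and 1.26-fold. The largest, NR1D2, had line means of 0.08 in MDA-MB-361, -0.17 in HCC1954, -0.40 in ZR-75-30, -0.26 in T-47D and -0.08 in MDA-MB-231 (adjusted p = 0.374, limma). All 6 ratios were below 0 in ZR-75-30, between -0.63 and -0.24. As dyes were not swapped, a constant preference of a probe for one dye is part of these means. The mean-ratio test also called 0 of the 7 BMP targets, whose median was 0.34, so a response can go uncalled in it.

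**Figure D5:**
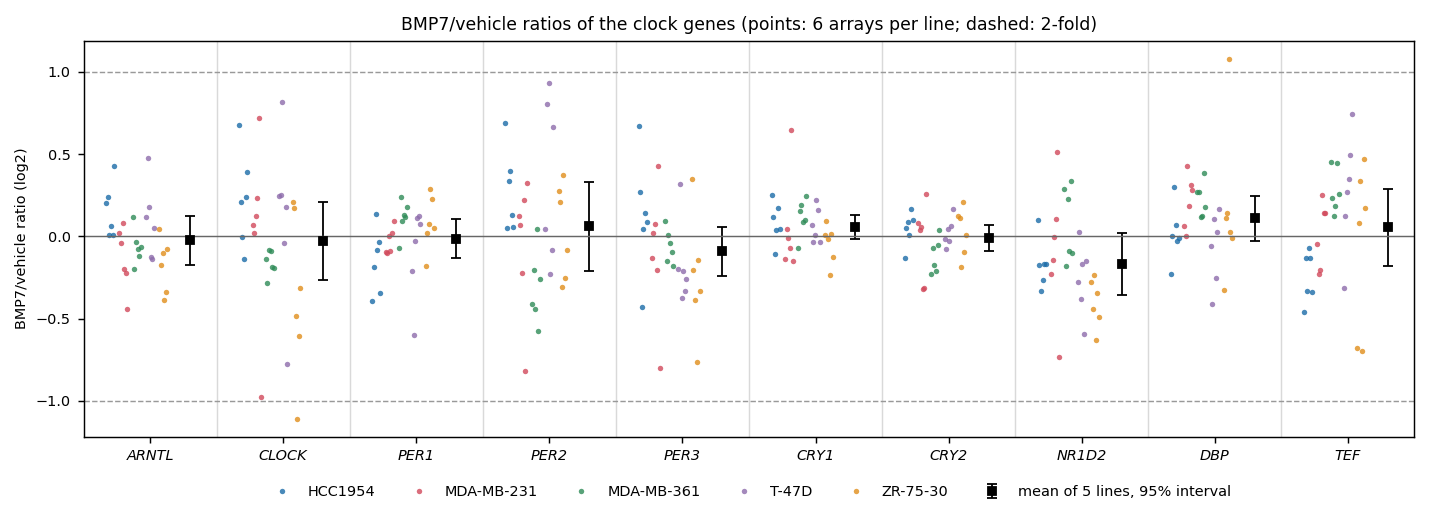
Log2 BMP7/vehicle ratio of the 10 clock genes on all 30 arrays (colored points, 6 per cell line), with the mean of the 5 lines and its 95% interval in black and dashed lines at 2-fold. All 10 intervals include 0, and 2 of the 300 points lie past 2-fold.

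A constant dye preference cancels between times, and there no member passed a test either. For the ratio at 12 and 24 h minus that in the first hour no member passed, against 0.18% of all probes (74 of 41000). For any difference among the 6 times none did, against 0.00732% (3 of 41000), and 1 of the 7 BMP targets passed. As 3 of the 30 min arrays lay in the second scan batch, batch is part of the first of these tests. With scan batch as a term it called 5 probes, again without a member. PER1 had the smallest p for the first (0.21 ± 0.07, SE, higher late in 5 of 5 lines, adjusted p = 0.114, limma), followed by TEF (0.34 ± 0.12, 5 of 5 lines, adjusted p = 0.153) and ARNTL (-0.17 ± 0.07, lower in 5 of 5 lines, adjusted p = 0.181). These 3 genes had an unadjusted p under 0.05 in that test (limma), as had 17.6% of all probes. The median absolute value was 0.19 over the 10 genes and 0.10 over all probes. PER2 and PER3 were lower late in 5 of 5 lines as well, with means of -0.25 (adjusted p = 0.38 and 0.302), although the second PER2 probe was at 0.45 and the second PER3 probe at -0.13. The 95% intervals of all 10 genes lay between -0.67 and 0.60. Of the other probes, the nearest to a call were the third PER3 probe for the mean ratio (0.21 ± 0.03, higher in 5 of 5 lines, adjusted p = 0.0929, limma) and the second CRY2 probe for late minus early (0.46 ± 0.13, adjusted p = 0.0756), neither matched by the brighter probe of its gene. The third CRY2 probe, well above background in vehicle on 9 arrays, gave 0.30 ± 0.12 for late minus early (higher in 5 of 5 lines, adjusted p = 0.198, limma). The ROR receptors and other genes of the clock list gave the same counts, 0 of 23 in each of these 3 tests.

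On single arrays, 91.3% of the 300 ratios were within 0.5 of 0, against 89.1% of all ratios on the arrays. Those past 2-fold were 2, CLOCK (-1.11) and DBP (1.08), both in ZR-75-30 at 6 h, which is 0.667% of the ratios of the brightest probes against 1.87% of all ratios, dim probes included. Among ratios well above background in both channels the shares were 0.676% and 0.798%, and over all 21 probes of the members the share was 1.75%. On that array PER3 was also at its lowest ratio in the line (-0.77), as were TEF (-0.70) and NR1D2 (-0.63). The share of all probes past 2-fold or at an extreme on that array alone was not counted. Without that array, no member was called in any of the 3 ratio tests, while the calls over all probes for the mean ratio rose from 4 to 46.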

How the data were processed

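The data were 30 two-color arrays, 1 for each cell line and time. Per the file headers, the deposited channel intensities and log10 ratios came from Feature Extraction 9.5.1.1, with background subtraction, linear and lowess dye normalization, and surrogates for signals not above background. Log2 ratios that the authors deposited in 1 table served as an alternative. Spots that were controls or marked as outliers were dropped, repeated probes averaged, ratios changed to log2, and each array set to a median of 0. Spots well above background in both channels made up 54.6% to 69.1% per array. The number of arrays limits the precision. Probes were tested with limma 3.58.1 (R 4.3.3) over all 41000 probes, Benjamini-Hochberg adjusted, threshold 0.05. Python 3.11.15 made the summaries.

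Every member is named, and from the lists the genes past the threshold, at most 6 per comparison. The members and lists were chosen with earlier results of these data known. Pooled cultures on single arrays mean that p-values measure only the spread between these arrays. Alternatives were other background corrections, scalings, filters, the scan batch, the slide, the line block, and leaving out lines, times or arrays.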

Additional observations from a re-analysis of the deposited data

How the results depend on the processing

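No alternative changed the number of members called by more than 1.5 times. It was 0 in all alternatives of the 3 ratio tests, the 2 vehicle time tests and the test among lines of the late minus early value, and 8 to 10 in the 16 alternatives of the test among cell lines. Over the alternatives the smallest adjusted p of any member was 0.0846 for the late minus early ratio, 0.125 for the mean ratio, 0.155 for the late minus early vehicle level and 0.234 for its difference among lines. Counts over all probes depended more on the processing, from 0 to 3146 against 4 for the mean ratio, 1 to 698 against 74 for the late minus early ratio, 0 to 5 against 3 for the ratio at any time, 0 to 75 against 15 for the late minus early vehicle level, 0 to 21 against 10 for the vehicle level at any time, 0 to 116 against 0 for the difference among lines, and 23089 to 32234 against 29874 for the lines. The cause was not tested. For the mean ratio the highest count, with normexp and median scaling, was split into 3120 higher and 26 lower, against 4 and 0. For the late minus early vehicle level, 75th percentile centering gave 8 higher and 15 lower against 1 and 14. Leaving out ZR-75-30 at 6 h, or the 3 arrays least like their line, was chosen after seeing the data. Beyond the pairing of BMP7 with vehicle on each array and the block by cell line, samples had no replicate numbers to pair, since each line and time has 1 array.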
